A study of Mus musculus with 12 samples.

Results

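The genes described here encode 10 receptors and ligands that tune T cell activation: the co-stimulatory receptors Cd28 and Icos, the inhibitory receptors Ctla4, Pdcd1, Tigit, Lag3, Havcr2 and Btla, and the ligands Cd80 and Cd274. They were chosen by gene symbol from the 17955 genes of the deposited expression table, and all 10 were found there and had enough counts to be tested among 12903 genes. RNA came from regulatory T cells (Tregs), purified by the surface proteins CD4 and CD25 and a YFP reporter from spleen and lymph node of C57BL/6 mice aged 7 weeks. Every mouse carried Foxp3YFP-cre, in which Cre recombinase and YFP are made under the Foxp3 locus, so controls and knockouts share the Cre. Wild-type mice (WT) were TKT+/+ and knockout mice (cKO) were TKTfl/fl, and so lose Tkt, which encodes the pentose phosphate enzyme transketolase, in cells that express Foxp3. Each genotype received either vehicle or DMαKG (dimethyl α-ketoglutarate, an ester that cells take up) in drinking water, begun in pregnancy and kept up into the offspring's adulthood. There were 4 groups with 3 mice each, numbered 2 to 4 with vehicle and 1 to 3 with DMαKG.

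CD28 on a T cell binds CD80 and CD86 on antigen-presenting cells and adds the second signal needed for activation, and ICOS does the same through its own ligand. CTLA-4 competes with CD28 for CD80 and CD86, and Tregs, which hold it at high levels, use it to strip these ligands from other cells. PD-1 (Pdcd1), which is bound by PD-L1 (Cd274), and TIGIT, LAG-3, TIM-3 (Havcr2) and BTLA restrain T cells through other ligands.

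The libraries held between 1.57e+07 and 1.89e+07 summed estimated counts. Tkt ran from 102 to 194 CPM (read counts scaled to TMM-adjusted library sizes) in the 6 WT libraries and from 26.2 to 41.8 CPM in the 6 cKO libraries. The Treg markers Foxp3 and Il2ra were present in all 12 libraries, with at least 279.6 and 467 CPM, whereas Cd8a, a marker of CD8 T cells, did not exceed 7.17 CPM. WT vehicle 4, cKO vehicle 4 and WT DMαKG 3 were neighbours on the first axis of a principal component analysis of all genes, at -32.9, -32.8 and -29.7. Each was the lowest of its group there, but cKO vehicle 2, at -20.0, lay between cKO vehicle 4 and cKO vehicle 3, at -6.29. Results are given with and without these 3 neighbouring libraries where they matter. The library cKO DMαKG 3 lay at the other end of that axis, at 47.0. Of the 12 libraries it had the highest sums of B cell, plasma cell, neutrophil, NK, and macrophage and monocyte markers. It had 38.7 CPM for 5 plasma cell markers, against 10.6 and 8.08 CPM in cKO DMαKG 1 and 2. For 9 neutrophil markers it had 38.2 CPM against 4.14 and 3.00 CPM, and for 19 macrophage and monocyte markers 820.1 CPM against 488 and 414 CPM. Its sums of CD8 T cell, erythroid, and stromal and endothelial cell markers were not the highest. Nor was its dendritic cell sum, at 91.2 CPM against 166 CPM in WT vehicle 2. The Y-linked gene Ddx3y was at 0.0555 CPM in WT vehicle 3 and at 0.518 and 0.509 CPM in cKO DMαKG 1 and 3. It was at an intermediate 22.6 CPM in WT DMαKG 2 and at 109 to 241 CPM in the remaining libraries. In sorted bulk RNA, fewer cells of a type and less RNA per cell cannot be told apart.

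Ctla4 was by far the most abundant of these transcripts. Its mean over the 12 libraries was 1467 TPM (a level corrected for transcript length), with a range of 556 to 2885 TPM, and its lowest library exceeded the highest library of any other member. Icos followed at 281 TPM, Cd28 at 278 TPM, Tigit at 225 TPM and Btla at 144 TPM. Icos and Cd28 could not be ordered, since Icos was above Cd28 in 5 of 12 libraries. Cd274 at 81.9 TPM, Pdcd1 at 74.4 TPM and Lag3 at 41.4 TPM formed the next levels, and each neighbouring pair overlapped in range. Cd80 at 6.39 TPM and Havcr2 at 3.06 TPM were the lowest, and every Lag3 value lay above every Cd80 value. The library counts behind these levels ran from 9494 to 47195 for Ctla4, but only from 61.7 to 189.9 for Cd80 and from 29.5 to 111.7 for Havcr2. Ctla4 came first, and Lag3, Cd80 and Havcr2 last in that order, in each of the 4 groups.

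**Figure D1:**
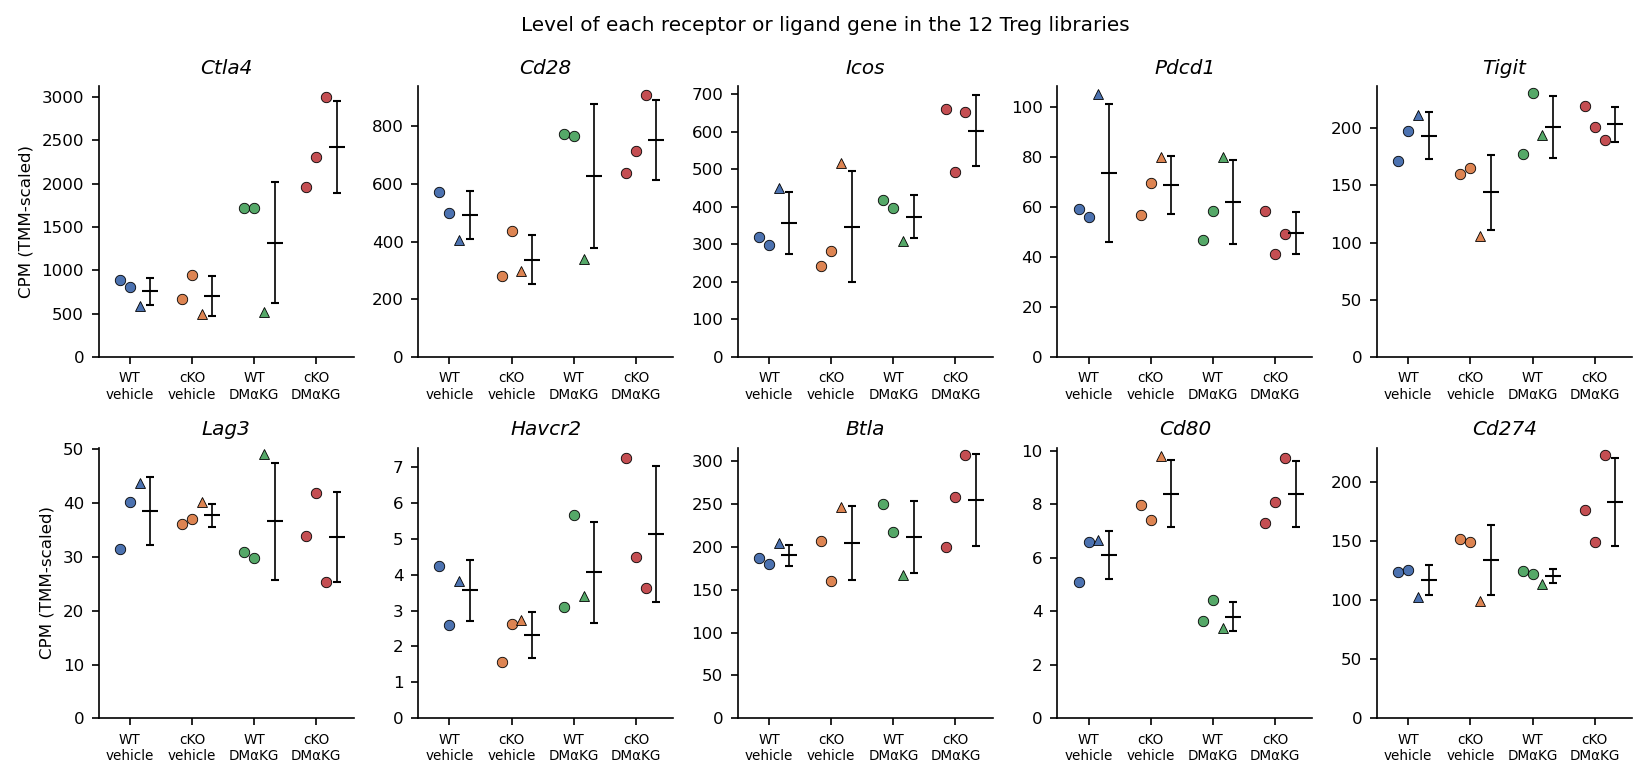
Level of each of the 10 genes in CPM (y axis, starting at 0) in the 4 groups (x axis). Each point is 1 mouse, triangles are WT vehicle 4, cKO vehicle 4 and WT DMαKG 3, and the bar is the mean with its SD over 3 mice. Ctla4 lies highest in the cKO mice given DMαKG, at 1965 to 3001 CPM, and Cd80 lies lowest in the WT mice given DMαKG, at 3.36 to 4.42 CPM.

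Cd28, Ctla4 and Icos lie side by side on mouse chromosome 1 in the GRCm38 build. Cd28 (gene 12487) spans chr1:60746388-60773359, Ctla4 (gene 12477) spans chr1:60909025-60915832 and Icos (gene 54167) spans chr1:60960773-61000322, with gaps of 135.7 kb and 44.9 kb between them. Cd80 (gene 12519, chr16:38457430-38495958), Tigit (gene 100043314, chr16:43626137-43665125) and Btla (gene 208154, chr16:45223705-45252895) share chromosome 16. Promoter windows of 250 bases before the start are shown for Ctla4, which had the largest difference of any member, and for Cd80, the member that passed the test. They were taken from RefSeq promoters of GRCm38.p6, on the plus strand, at chr1:60908775-60909024 for Ctla4 and chr16:38458683-38458932 for Cd80, with motif matches in capitals. The Cd80 window lies inside the full span of the gene, before the start that the promoter table uses. Promoter entries were matched for 7 of the 10 members.
Ctla4: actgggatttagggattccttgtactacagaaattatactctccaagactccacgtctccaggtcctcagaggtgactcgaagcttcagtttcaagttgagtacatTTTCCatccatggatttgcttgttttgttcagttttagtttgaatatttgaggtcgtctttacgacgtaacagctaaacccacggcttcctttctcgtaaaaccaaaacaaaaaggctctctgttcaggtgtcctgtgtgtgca
Cd80: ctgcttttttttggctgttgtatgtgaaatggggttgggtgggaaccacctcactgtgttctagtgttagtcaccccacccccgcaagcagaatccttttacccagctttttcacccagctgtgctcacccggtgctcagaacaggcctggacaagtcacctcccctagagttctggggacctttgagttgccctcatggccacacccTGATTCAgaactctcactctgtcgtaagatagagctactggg
The windows were searched on both strands for the NFAT core GGAAA, the AP-1 site TGANTCA and the forkhead site GTAAACA, which are bound by factors of T cell activation and by the family that includes FOXP3. The Ctla4 window held 1 match, an NFAT core read as TTTCC at -144 to -140, and the Cd80 window held 1 match, the AP-1 letters TGATTCA at -42 to -36, so no matches overlapped. Among 32817 mouse promoter windows of this length, 55.6% held the NFAT core, 6.75% the AP-1 site and 3.16% the forkhead site.

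The first question was whether loss of Tkt altered these genes in mice given vehicle. None of the 10 passed the edgeR quasi-likelihood test at an adjusted p of 0.05, where 0.062% of all tested genes did, while 2 had an unadjusted p under 0.05 against 7.29% of all genes. DESeq2 and limma voom also called 0 of the 10, where they called 0.775% and 1.9% of all genes. In WT mice 2, 3 and 4 the Ctla4 level was 882, 809 and 583 CPM, and in the cKO mice of the same numbers it was 666, 949 and 489.6 CPM. The groups overlapped, and the log2 fold change of -0.11 (95% interval -0.98 to 0.76, edgeR adjusted p = 0.983) leaves room for a change of either sign. Tigit, a receptor for CD155, was at 171, 198 and 212 CPM in WT and at 160.2, 165 and 106 CPM in cKO. Its groups did not overlap, as in 7.01% of all genes in the lower direction, but its log2 fold change of -0.43 did not pass (edgeR adjusted p = 0.574). In TPM the Tigit groups did overlap, at 196 TPM or more in WT and up to 207 TPM in cKO. Cd80 was the other member without overlap, with the cKO libraries above WT, as in 8.29% of all genes. Of the 10 members 7 had negative fold changes, and their median log2 fold change was -0.07 against 0.01 for all genes.

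The same comparison in mice given DMαKG had 1 member that passed, Cd80, where 0.186% of all tested genes passed. CD80 (B7-1) is the ligand shared by CD28 and CTLA-4 and also binds PD-L1. In WT mice 1, 2 and 3 it measured 3.63, 4.42 and 3.36 CPM, and in cKO mice 1, 2 and 3 it measured 7.32, 8.08 and 9.73 CPM. Every cKO library was above every WT library, and the mean rose 2.20-fold (log2 fold change 1.14, SE 0.20, 95% interval 0.71 to 1.57, edgeR adjusted p = 0.0468). The call lies close to the threshold and was lost without edgeR's robust estimation (adjusted p = 0.0531), with only these 6 libraries in the fit (0.145), with a Y-linked covariate (0.236), and without the 3 neighbouring libraries (0.168). Leaving out any 1 library other than cKO vehicle 4 also ended it (adjusted p of 0.0523 to 0.239), while DESeq2 (0.000301) and limma voom (0.021) kept it. The size moved less: the log2 fold change was 1.07 with the Y-linked covariate, 1.05 without the 3 neighbouring libraries and 1.02 without cKO DMαKG 3 (adjusted p = 0.11), and ran from 0.99 to 1.27 over all settings tried.

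With vehicle, Cd80 was at 5.08, 6.61 and 6.66 CPM in WT and at 7.96, 7.41 and 9.8 CPM in cKO, in replicates 2 to 4. The groups again did not overlap, with a log2 fold change of 0.46 (SE 0.19, edgeR adjusted p = 0.633). The cKO means with vehicle and with DMαKG were close, 8.39 ± 1.25 and 8.38 ± 1.23 CPM (SD, n = 3), and the WT means were 6.12 ± 0.897 and 3.81 ± 0.551 CPM (SD, n = 3). Averaged over both treatments Cd80 rose by 0.80 on the log2 scale in cKO (SE 0.14, 95% interval 0.50 to 1.10, edgeR adjusted p = 0.0188), the only member among the 1.01% of genes that passed there. At an unadjusted p under 0.05 there were 2 members, against 12.8% of all genes. Leaving out WT vehicle 2 (adjusted p = 0.058), WT DMαKG 1 (0.0562), WT DMαKG 3 (0.0519) or the 3 neighbouring libraries (0.0987) ended that call. The genotype difference was not shown to depend on DMαKG, since the interaction of 0.68 had an unadjusted p of 0.029 and an edgeR adjusted p of 0.955.

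Cd80 is also made by B cells, dendritic cells and macrophages, so their markers were set beside it. The summed level of 12 B cell markers was 31.8 to 39.0 CPM in WT and 49.0 to 85.8 CPM in cKO with DMαKG, and 27.1 to 47.1 CPM in WT and 32.2 to 43.1 CPM in cKO with vehicle. The 13 dendritic cell markers summed to 95.5 to 104.7 CPM in WT and 84.4 to 93.6 CPM in cKO with DMαKG, and to 103 to 166 CPM in WT and 81.4 to 108 CPM in cKO with vehicle. The 19 macrophage and monocyte markers summed to 395 to 625 CPM in WT and 414 to 820.1 CPM in cKO with DMαKG, and to 392 to 636 CPM in WT and 355 to 447 CPM in cKO with vehicle. The most abundant genes in these sums were Cd22, Cd79b and Bank1 (B cell), Irf8, Bst2 and Ccr9 (dendritic cell) and Ctss, Cybb and Vcam1 (macrophage). Gene by gene with DMαKG, 12 of 12 B cell, 4 of 11 tested dendritic cell and 14 of 19 macrophage markers were higher in sign in cKO. Of these 0 were called. With vehicle, where Cd80 was also higher in cKO, 3 of 12, 1 of 11 and 1 of 19 of these markers were higher in sign, and 0 were called. The highest B cell and macrophage sums with DMαKG were those of cKO DMαKG 3, which also had the highest Cd80 of its group, while cKO DMαKG 1 and 2 had B cell sums of 49.0 and 52.6 CPM. Of the 5 plasma cell markers 4 were tested, and all 4 were higher in sign in cKO with DMαKG, with a median log2 fold change of 2.18 and 0 called. With vehicle 1 of the 4 was higher in sign and 3 were lower, with a median of -1.02 and 0 called. Averaged over treatments 1 B cell marker, Cd22, passed as higher in cKO, and the dendritic cell marker Ccr9 and the macrophage marker Cybb passed as lower. Among defining markers, Itgax ran from 0.567 to 4.29 CPM and Csf1r from 4.98 to 54.7 CPM over the 12 libraries. The part of these cells in the Cd80 difference was not tested.

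Ctla4 was also higher in cKO than in WT within the DMαKG mice, without passing the test. The WT mice 1, 2 and 3 had 1722, 1722 and 514 CPM, and the cKO mice 1965, 2307 and 3001 CPM. The groups did not overlap, but WT replicate 3 lay far below its 2 companions, and the log2 fold change of 0.88 (SE 0.40) had an edgeR adjusted p of 0.478. Without that library it was 0.49, and without cKO DMαKG 3, the highest, it was 0.70. With the Y-linked covariate it was 0.73 (edgeR adjusted p = 0.899). For every gene in this comparison, Ddx3y was at 0.518 and 0.509 CPM in cKO DMαKG 1 and 3 and at 22.6 CPM or more in the other libraries compared. Icos stood at 417, 396 and 308 CPM in WT and at 660.1, 493 and 653 CPM in cKO, a log2 fold change of 0.69 (SE 0.26, edgeR adjusted p = 0.371). Cd274 stood at 125, 122 and 114 CPM in WT and at 176, 149 and 223 CPM in cKO, a log2 fold change of 0.60 (SE 0.17, edgeR adjusted p = 0.256). Neither gene overlapped between the groups. At an unadjusted p under 0.05 there were 3 members, against 10.4% of all genes. With Cd80 and Ctla4 this made 4 members higher without overlap, where 7.92% of all genes were, and 8 of 10 members had positive fold changes, with a median of 0.30 against 0.00 for all genes. Cd274 overlaps Plgrkt on the genome, and its counts are uncertain because the sources used here do not say whether counting used strand. The same holds for Tigit and Zbtb20.

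**Figure D2:**
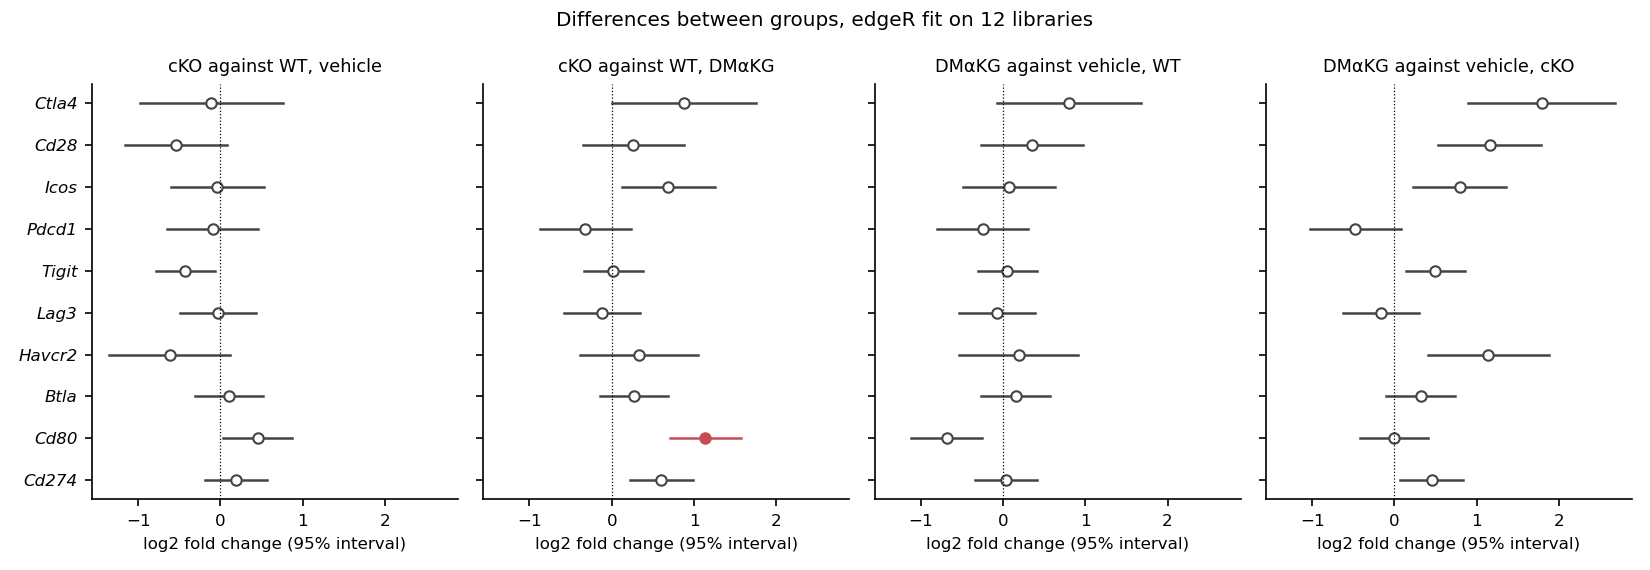
Log2 fold change of each gene (x axis, with its 95% interval) in the 4 comparisons between pairs of groups, from the edgeR fit on 12 libraries. Filled red marks an adjusted p under 0.05, reached by Cd80 in cKO against WT with DMαKG, at 1.14, and the intervals of Ctla4, Cd28, Icos, Tigit, Havcr2 and Cd274 in the last panel lie above 0 without passing the adjusted threshold.

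DMαKG was next compared with vehicle in each genotype. In WT mice 0 of the 10 genes passed edgeR's adjusted threshold, as did 0% of all genes. At an unadjusted p under 0.05 there was 1 member, Cd80, against 2.73% of all genes, and DESeq2 and limma voom called 0 members, where they called 0.0155% and 0.062% of all genes. Cd80 was lower in every DMαKG library than in every vehicle library, as for 3.86% of genes in that direction, with a log2 fold change of -0.68 (SE 0.20, edgeR adjusted p = 0.999). Ctla4 was 0.80 higher on the log2 scale in WT (SE 0.40, 95% interval -0.08 to 1.68, edgeR adjusted p = 0.999), with WT DMαKG replicate 3 below all 3 vehicle libraries.

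In cKO mice 7 of the 10 genes were higher in sign with DMαKG. Ctla4 was 3.46-fold higher with DMαKG than with vehicle, a log2 fold change of 1.79 (SE 0.41, 95% interval 0.89 to 2.69), from a mean of 701 ± 232 CPM to 2425 ± 528 CPM (SD, n = 3). The lowest DMαKG library, at 1965 CPM, was above the highest vehicle library, at 949 CPM. The unadjusted p of 0.00105 became 0.132 after edgeR's adjustment over all genes. DESeq2 gave an adjusted p of 0.000556 and limma voom with sample weights 0.0402. Under edgeR it passed without WT DMαKG 3 (0.0301) and without the 3 neighbouring libraries (0.0469), but not with a Y-linked covariate, where the log2 fold change was 1.58 (0.909). Without cKO DMαKG 3, which had the highest Ctla4 of all libraries, it was 1.61 (0.347). The 3 neighbouring libraries had the lowest Ctla4 of all and were picked after the data were seen. Ctla4 had an r of 0.957 with the first principal component, on which they lay together. Leaving them out thus removes low Ctla4 values by choice, and passing without them was not an independent test. Leaving out WT DMαKG 3, which is in neither group compared, also took the calls over all genes from 0 to 137. In 2 of the 3 cKO DMαKG mice and in 0 of the 3 cKO vehicle mice Ddx3y was under 1 CPM, and the part of sex in the difference was not tested beyond that covariate. The same imbalance applies to every other member in this comparison.

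Cd28 went from 279, 437 and 297 CPM in cKO with vehicle to 639, 714 and 908 CPM with DMαKG. The groups did not overlap, and the mean was 2.23-fold higher (95% interval of the log2 fold change 0.53 to 1.79, edgeR adjusted p = 0.144, DESeq2 adjusted p = 0.00691). Without cKO DMαKG 3 the log2 fold change of Cd28 was 1.01 (edgeR adjusted p = 0.356). Icos went from 243, 282 and 515 CPM to 660.1, 493 and 653 CPM, with cKO vehicle 4 above the lowest DMαKG library, and a log2 fold change of 0.80 (SE 0.26, edgeR adjusted p = 0.192). The Icos difference was 1.21 without the 3 neighbouring libraries, of which cKO vehicle 4 is one (edgeR adjusted p = 0.0443), and 1.09 with limma voom (adjusted p = 0.0253). Tigit was at 219.6, 201 and 189 CPM with DMαKG, above the vehicle values given before, with a log2 fold change of 0.50 (SE 0.16, edgeR adjusted p = 0.192). Havcr2, the receptor TIM-3, went from 1.57, 2.64 and 2.73 CPM to 7.25, 4.5 and 3.62 CPM, a log2 fold change of 1.14 (SE 0.34, edgeR adjusted p = 0.167). Cd274 differed by 0.45 (SE 0.17, edgeR adjusted p = 0.226), with overlapping groups. Thus 0 of 10 members passed edgeR's threshold, as did 0% of all genes, and 6 had an unadjusted p under 0.05, all higher, against 17.3% of all genes in both directions and 7.4% in the higher direction.

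Of the 10 members 4 lay higher without overlap in CPM in the cKO comparison, namely Ctla4, Cd28, Tigit and Havcr2, where 8.91% of all genes did. In TPM Tigit overlapped, at up to 207 TPM with vehicle and 183 TPM or more with DMαKG. DESeq2 called 2 of the members in this comparison, where it called 3.17% of all genes, and limma voom called 3, where it called 3.49%. The median log2 fold change of the members was 0.48 against 0.00 for all genes. Havcr2 is made by macrophages as well, and 18 of 19 macrophage and monocyte markers had positive fold changes in this comparison, with a median of 0.94. Their summed level was 355 to 447 CPM with vehicle and 414 to 820.1 CPM with DMαKG, the highest in cKO DMαKG 3. Ctla4, Cd28 and Cd274 were also highest of their group in that library. Havcr2 was lowest there, at 3.62 CPM, and highest in cKO DMαKG 1, at 7.25 CPM, where the macrophage sum was 488 CPM. The 12 B cell markers and the 4 tested plasma cell markers were all higher in sign, with 0 called. The part of these cells in the Ctla4, Cd28, Havcr2 and Cd274 values was not tested.

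Pdcd1 and Lag3 went the other way in sign. Pdcd1 was at 56.8, 69.7 and 79.9 CPM in cKO with vehicle and at 58.2, 41.3 and 49.3 CPM with DMαKG, a log2 fold change of -0.47 (SE 0.26, edgeR adjusted p = 0.355) with overlapping groups. In WT it was at 59.3, 55.9 and 105 CPM with vehicle and at 47, 58.6 and 80.2 CPM with DMαKG. Lag3, an inhibitory receptor for MHC class II, had group means of 38.5, 37.7, 36.6 and 33.7 CPM in WT vehicle, cKO vehicle, WT DMαKG and cKO DMαKG, and no pairwise fold change beyond -0.16 on the log2 scale. Btla, which binds HVEM, had means of 190.5, 204, 212 and 255 CPM in that order, and its fold change of 0.32 in cKO had a 95% interval of -0.10 to 0.73.

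Whether the effect of DMαKG differed between genotypes was tested by the interaction. Its log2 value was 0.99 for Ctla4 (SE 0.56, 95% interval -0.25 to 2.22), 0.81 for Cd28, 0.72 for Icos and 0.95 for Havcr2, each with an edgeR adjusted p of 0.955. No member passed, nor did any of the 12903 genes (0%), with 1 member at an unadjusted p under 0.05, Cd80, against 3.64% of all genes. DESeq2 and limma voom called 0 members and 1 gene each (0.00775%). The larger difference in cKO than in WT is therefore not shown to be a difference between genotypes. Averaged over both genotypes, 0 members passed, against 0.00775% of all genes, and 6 had an unadjusted p under 0.05, against 15.9%. The averaged DMαKG difference was 1.29 for Ctla4 (SE 0.29, edgeR adjusted p = 0.144) and 0.75 for Cd28 (SE 0.20, edgeR adjusted p = 0.156). Without WT DMαKG 3, which had the lowest Ctla4 of all DMαKG libraries, the edgeR adjusted p of Ctla4 was 0.00601. Leaving out that library also took the calls over all genes from 1 to 619. Ctla4 passed in 4 of 23 alternative settings, whose adjusted p reached 0.675.

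The balance between Ctla4 and Cd28, which compete for the same ligands, was described by the ratio of their TPM, a measure chosen after the values were seen and given with no test. The ratio was 3.52, 3.70 and 3.27 in WT vehicle replicates 2, 3 and 4 and 5.43, 4.96 and 3.74 in cKO vehicle. It was 5.06, 5.11 and 3.46 in WT DMαKG replicates 1, 2 and 3 and 7.00, 7.35 and 7.52 in cKO DMαKG. The 3 cKO DMαKG libraries lay above all 9 others, and the 3 neighbouring libraries had the lowest ratio of their own group.

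**Figure D3:**
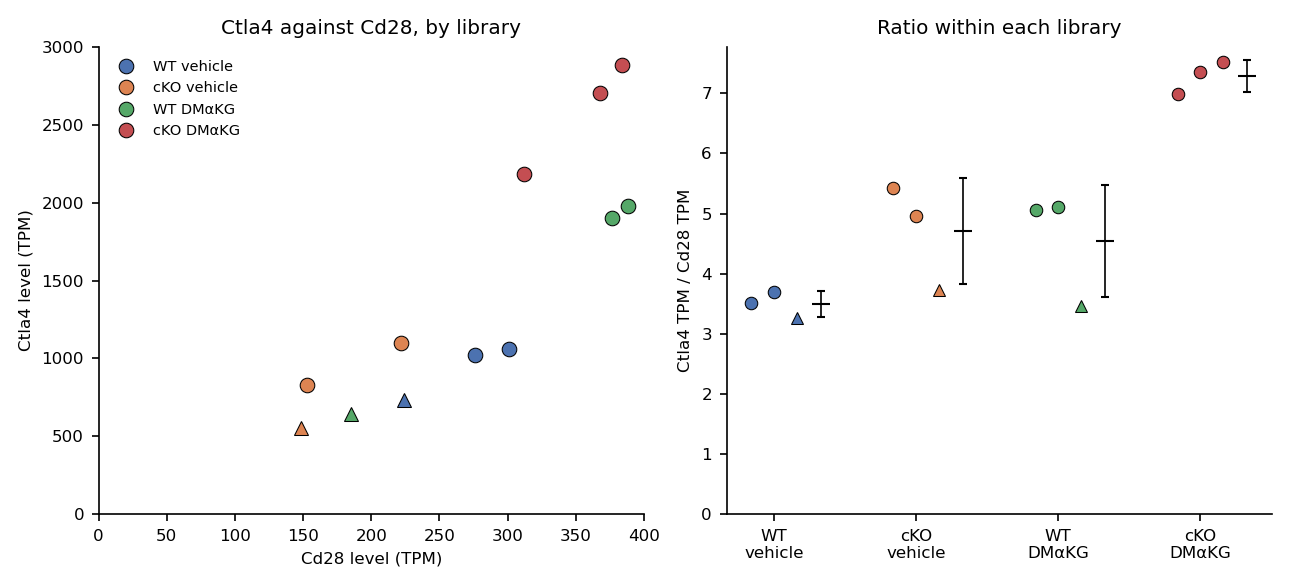
Left, Ctla4 against Cd28 in TPM, with 1 point per library. Right, the ratio Ctla4 TPM over Cd28 TPM by group, with the mean and SD over 3 mice. Triangles are WT vehicle 4, cKO vehicle 4 and WT DMαKG 3, and the ratio is 7.00 to 7.52 in cKO DMαKG and at most 5.43 elsewhere.

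Across the 12 libraries Ctla4 and Cd28 moved together, with a Pearson r of 0.918 in log2 CPM, and 0.966 after subtracting group means. Ctla4 was likewise correlated with Cd274 at 0.734 and inversely with Pdcd1 at -0.771 and Lag3 at -0.683, while Icos and Btla had an r of 0.692. These are descriptions over 12 libraries that fall into 4 groups. The r with the first principal component, to which these genes themselves contribute, was 0.957 for Ctla4, 0.920 for Cd28, -0.781 for Pdcd1 and 0.101 for Cd80. Of the 12 libraries, the 3 lowest for Ctla4 and the 3 lowest for Cd274 were WT vehicle 4, cKO vehicle 4 and WT DMαKG 3, in which Pdcd1 and Lag3 were highest of their own group.

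**Figure D4:**
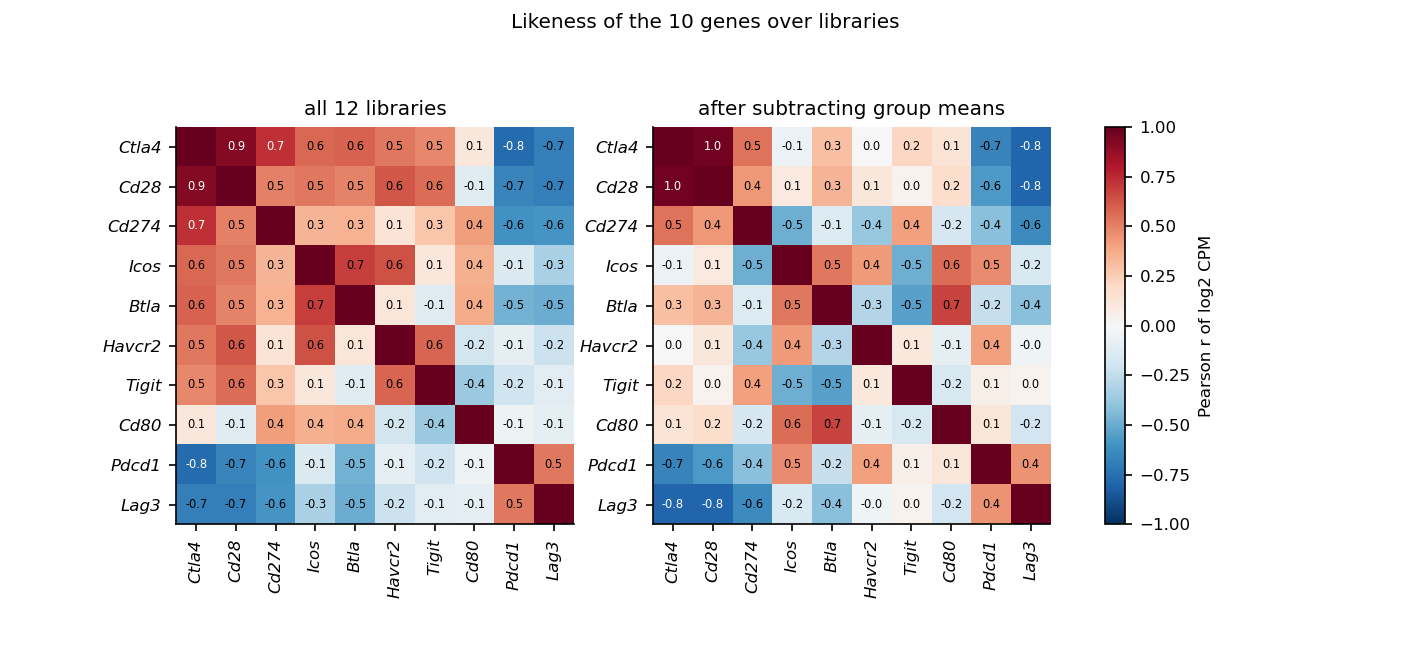
Pearson r of log2 CPM between each pair of the 10 genes over 12 libraries (left) and after group means are subtracted (right), on a color scale from -1 to 1. Ctla4 and Cd28 form the strongest pair, at 0.918 and 0.966, and Pdcd1 and Lag3 run against them.

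The genes most like each member over the 12 libraries were sought among 9824 genes with a mean of at least 5 CPM. For Ctla4 they were Vps37b (r = 0.984), the homing receptor Ccr7 (0.981) and Polg2 (0.976). For Cd28 they were Jmjd1c, Rnf138 and Fnip1, for Icos they included Scarb2 and Zgrf1, and for Cd80 they were Klf12, Nbdy and Arfip2. For Cd274 they were Ell2, Phkg2 and Metap1d, for Pdcd1 they included Fam124b and Snx20, and for Tigit they were Atxn1, Trps1 and Ptprj. For Lag3 they were 2310061I04Rik, Ppm1j and Sugp2, for Havcr2 Bard1, Kif23 and Fancd2, and for Btla Wdr92, Gtf3c3 and Rnf7. Ccr7 had group means of 209, 248, 479 and 936 CPM in WT vehicle, cKO vehicle, WT DMαKG and cKO DMαKG, and its difference with DMαKG in cKO did not pass (log2 fold change 1.92, edgeR adjusted p = 0.145).

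Other genes of the pathway were read from lists. Of 15 ligands of these receptors 10 were tested, and 1 of them, Nectin2, a ligand of TIGIT and PVRIG, rose in cKO averaged over treatments (log2 fold change 1.13, SE 0.22, edgeR adjusted p = 0.0306) and in 6 of 6 cKO libraries lay above all 6 WT libraries. Its level was low, 0.703 to 1.26 CPM in WT and 1.59 to 2.40 CPM in cKO, and leaving out any of 9 of the 12 libraries, among them WT vehicle 2 (adjusted p = 0.0913), ended the call. Cd86, the other ligand of CD28 and CTLA-4, was at 30.8, 28.8 and 40.7 CPM in WT and 48.1, 49.4 and 43.9 CPM in cKO with vehicle, and at 36.2, 31.5 and 38.3 CPM in WT and 54.7, 40.4 and 59.1 CPM in cKO with DMαKG. The cKO libraries lay above WT in both treatments, with an averaged log2 fold change of 0.52 (SE 0.12, edgeR adjusted p = 0.0581) that missed the threshold. It passed in 6 of 23 alternative settings, whose adjusted p ran from 0.00321 to 0.161. With vehicle 1 of 24 settings passed, limma voom (adjusted p = 0.0247). Antigen-presenting cells also make Cd86, and the part of other cells in the Cd86 and Nectin2 differences was not tested. Of the 10 tested ligands 6 were higher in cKO on average, with a median of 0.07 against 0.00 for all genes.

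No gene passed in any of the 7 comparisons among 20 other co-stimulatory and inhibitory receptors, 19 genes of CD28 and ICOS signalling, 13 inhibitory phosphatases and adaptors, 9 genes of CTLA-4 trafficking, 20 transcription factors known to act on these genes and 12 resting Treg genes. Klrg1, an inhibitory receptor of effector Tregs, had means of 41.0, 10.3, 42.8 and 18.4 CPM in WT vehicle, cKO vehicle, WT DMαKG and cKO DMαKG (averaged genotype difference -1.61, edgeR adjusted p = 0.0968). Pvrig had means of 22.6, 7.65, 14.9 and 9.996 CPM (-1.07, 0.0749), and Cd200 of 87.3, 94.7, 74.3 and 59.8 CPM. In signalling, Malt1 differed by 0.44 and Prkcq, the kinase PKC-theta, by -0.34 with DMαKG in cKO, with edgeR adjusted p of 0.145 and 0.169, and Tec by -0.38 on average between genotypes. Dok1, Dok2 and Ptpn11, which act below inhibitory receptors, were within 0.38 of no difference in the 4 pairwise comparisons on the log2 scale. Lrba, which keeps CTLA-4 from degradation, had means of 162, 129, 174 and 148 CPM, Def6 of 176, 202, 182 and 164 CPM and Trat1 of 145, 171, 154 and 210.0 CPM. Batf, Maf and Nr4a3 had averaged genotype differences of 0.40, -0.64 and 0.54, none of which passed. Among the 12 resting Treg genes 4 were higher and 8 lower in sign with DMαKG in cKO: Ccr7 differed by 1.92, Bcl2 by -0.41 and Id3 by -1.41 on the log2 scale, with edgeR adjusted p of 0.145, 0.204 and 0.155.

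Among 18 effector Treg genes, Cxcr6, a homing receptor, fell by 1.74 on the log2 scale in cKO with vehicle (SE 0.27, edgeR adjusted p = 0.0455), from 16.3 to 4.85 CPM, a call lost when any 1 of the 12 libraries was left out. Averaged over treatments Cxcr6 fell by 1.14 (edgeR adjusted p = 0.0143) and the chemokine receptor Ccr2 by 1.75 (0.0152), Ccr2 in 6 of 6 cKO libraries below all 6 WT libraries. Itgae, the integrin CD103, was at 158, 164, 170 and 341 CPM in WT vehicle, cKO vehicle, WT DMαKG and cKO DMαKG, without passing (DMαKG in cKO 1.06, edgeR adjusted p = 0.125). The counts of Cxcr6, Itgae, Lrba and Dok2 are uncertain, as each overlaps another gene of the table. The 18 genes had a median log2 fold change of -0.78 in cKO with vehicle and of 0.51 with DMαKG in cKO, against 0.01 and 0.00 for all genes. Monocytes also make Ccr2, and the medians of myeloid cell markers had the same signs. In cKO with vehicle 18 of 19 macrophage and monocyte markers were lower in sign (median -1.09), as were 10 of 11 tested dendritic cell markers (median -1.30). With DMαKG in cKO 18 of 19 macrophage and monocyte markers (median 0.94) and 7 of 11 dendritic cell markers (median 0.46) were higher in sign, and 0 of either list were called in these comparisons. Averaged over treatments 17 of 19 macrophage and monocyte markers were lower in sign in cKO (median -0.52). The part of these cells in the differences of the effector list was not tested.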

How the data were processed

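RNA-seq of 12 Treg libraries was read from a single table. The authors deposited estimated counts, FPKM and TPM for 17955 genes. The estimated counts were deposited without normalization. They were rounded for testing, since 36% of values were not whole. The FPKM and TPM that the authors deposited are scaled for transcript length and library size, and TPM was used to order genes. Per the submitters' processing notes the tools were featureCounts 1.5.0-p3, HISAT2 2.0.5 and DESeq2 1.16.1, and the build mm10, with no role or order stated.

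Groups and replicate numbers came from the labels. edgeR 4.0.16 in R 4.3.3 fitted 1 mean per group to 12 libraries (TMM, expression filter, robust quasi-likelihood test, 8 residual degrees of freedom), with Benjamini-Hochberg adjustment over 12903 genes per comparison. The 7 comparisons were the 4 pairwise ones, their interaction and 2 averages. Alternatives used DESeq2 1.42.0, limma 3.58.1, other scalings, filters, fits and left-out libraries. Only the edgeR fit was tried on simulated data, 1 set drawn from its own estimates of spread, for cKO against WT with vehicle. Of each list, genes past the threshold and the 3 with the smallest p in a pairwise comparison were named, and for each member the 3 most correlated genes, and some genes that these rules name are not reported here. Coordinates come from a RefSeq table of GRCm38.p6, the same build as mm10, which matched 17901 IDs. The members and lists were chosen with earlier results of these data known.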

Additional observations from a re-analysis of the deposited data

How the results depend on the processing

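The count of called members depended on the setting. For cKO against WT with DMαKG the count of 1 became 0 at an adjusted p below 0.01, with only the groups compared, with the replicate block, without robust estimation, without the 3 neighbouring libraries and with a Y-linked covariate, and was 0 to 1 when 1 library was left out. For DMαKG against vehicle in cKO it was 2 with DESeq2, 3 with limma voom, 2 without the 3 libraries, and 0 to 2 when 1 library was left out. Over all genes those settings called 385, 450, 15 and 0 to 137 in that order. Averaged over treatments the genotype count of 1 became 0 at the stricter threshold, 2 with limma voom, 0 with the replicate block, 0 without the 3 libraries, and 0 to 1 when 1 library was left out. The calls over all genes were 130 in the main fit and 36, 1038, 12, 68 and 52 to 164 in those settings. For DMαKG averaged over genotypes it was 2 with DESeq2, 3 with limma voom, 3 without the 3 libraries, and 0 to 2 when 1 library was left out. Among all genes the same settings called 344, 1546, 163 and 0 to 619. By CPM 6 of 10 members kept their rank, and 11 of 30 like genes were shared with Spearman's rho and 3 of 30 with residuals.

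The Ctla4 difference between genotypes with vehicle, -0.11, changed sign with limma voom (0.025) and the Y-linked covariate (0.023), and ran from -0.40 to 0.0925 when 1 library was left out. The cause was not tested. Genes called in all, in the order cKO against WT with vehicle, the same with DMαKG, DMαKG against vehicle in WT, the same in cKO, interaction, averaged genotype and averaged DMαKG, were 8, 24, 0, 0, 0, 130 and 1 in edgeR, 100, 143, 2, 385, 1, 398 and 344 in DESeq2 and 245, 237, 8, 450, 1, 1038 and 1546 in limma voom. In that order they were 1, 0, 0, 0, 0, 12 and 0 with the replicate block, 3, 1, 0, 15, 0, 68 and 163 without the 3 libraries, 3, 4, 0, 0, 0, 108 and 1 with the Y-linked covariate and 3, 9, 0, 0, 0, 126 and 1 without robust estimation. With only the groups compared the 4 pairwise counts were 0, 3, 0 and 4. Leaving out WT DMαKG 3 gave 137 calls for DMαKG in cKO and 619 for the mean of DMαKG. Same-numbered libraries had correlations of -0.12, 0.14 and 0.47 with vehicle and -0.25, -0.09 and -0.28 with DMαKG. Between treatments, replicates 2 and 3 had 0.23 and -0.22 in WT and 0.22 and 0.02 in cKO. The labels do not say whether the numbers pair the mice, and these values cannot settle it. With the replicate block Cd80 did not pass, with edgeR adjusted p of 0.231 with DMαKG and 0.0885 averaged over treatments. Of single-gene values 970 kept direction and side of the threshold, 27 newly passed, 57 no longer passed and 4 changed sign. Added after seeing the data were the fit without robust estimation, leaving out the 3 libraries, the Y-linked covariate and removal of length and GC trends. Depth limits most the low genes Cd80, Havcr2 and Nectin2.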
